A study of Mus musculus with 45 samples.

Results

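The replication-dependent histone genes make the core histones H2A, H2B, H3 and H4 and the linker histone H1 that package newly copied DNA. They were taken as every gene symbol that carries the older Hist cluster names (a cluster number from 1 to 4, then h and the histone class) and stands in 1 row only of both unfiltered tables, which gave 69 genes of 49922. The measurements were RNA-seq libraries of neural stem cells (NSCs), intermediate progenitor cells (IPCs) and whole dentate gyrus (DG), the part of the hippocampus where both cell types lie. GEO's labels give all as NestinGFP mice of the C57Bl6J strain, aged 6 to 9 weeks, in which Nestin regulatory sequence drives GFP. The study's own account calls the 3 mice of the untreated whole DG wild type, a conflict that the sources used here do not settle. NSCs were sorted as GFP+ GLAST+ cells and IPCs as GFP+ GLAST- cells, after cells positive for O1, O4, CD31 or CD45 had been gated out. Untreated mice gave NSCs and IPCs (3 mice, 3 technical replicates of 300 cells each) and whole DG (3 other mice). By the study's account only part of each 300-cell lysate was amplified. In the injury experiment, DGs ipsilateral to the injury were taken 4 h after lateral fluid percussion injury, a model of traumatic brain injury (TBI), or after sham treatment without the fluid pulse. TBI gave NSCs, IPCs and whole DG of 3 mice each, and sham gave NSCs of 2 mice, IPCs of 3 mice and whole DG of 3 mice, the whole DGs again from other mice.

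Replication-dependent histone mRNAs are made in bulk while DNA is copied and are broken down when copying ends. Unlike other mRNAs they end in a short stem-loop, which stem-loop binding protein (Slbp) holds, and they carry no poly(A) tail. Some of these genes can also give longer, polyadenylated transcripts in cells that have left the cycle. Adult NSCs of the DG are mostly quiescent, while IPCs are the cells that divide before neurons form. The library kit therefore bears on every value below: sorted cells were amplified with SMART-Seq HT, which primes from poly(A), and whole DG RNA went into the NEBNext Ultra II Directional kit. GEO's labels give polyA RNA for all libraries, and kit and tissue cannot be told apart in any comparison of sorted cells with whole DG. If those mice were wild type, genotype cannot be told apart from them in untreated mice either.

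By their symbols the genes belong to 4 clusters: 56 Hist1 genes on chromosome 13, 10 Hist2 genes on chromosome 3, 2 Hist3 genes on chromosome 11 and 1 Hist4 gene on chromosome 6 (GRCm38, GENCODE M21). Hist1h2al, annotated as a processed pseudogene, lies apart from the other Hist1 genes (chr13:51202727-51203065). There are 6 H1, 20 H2A, 18 H2B, 12 H3 and 13 H4 genes. A stem-loop stood in the annotated transcripts of 42 of the 69 genes (60.9%), against 45 of 21901 protein-coding genes of the annotation (0.205%). In 21 genes the transcript ended within 100 bases of it, in 21 it ran further, and in 27 no stem-loop was annotated. Some of the 27 have transcripts annotated for only 0 bases (Hist1h1b, Hist1h2ai, Hist1h2ak, Hist1h2an) or 2 bases (Hist1h2ah) past the stop codon. Whether those genes have a stem-loop could not be read from the annotation. The pseudogenes Hist1h2aj and Hist1h2al are also among the 27. The hexamer AATAAA, the usual poly(A) signal, stood in the last 50 bases of 1, 9 and 5 genes of these 3 groups. The stem-loops of the genes that the results turn on are printed here from the annotated transcripts, sense strand, with the 6-base stems and the 4-base loop in capitals and up to 5 flanking bases on each side.
Hist1h2ap: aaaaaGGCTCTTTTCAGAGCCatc
Hist1h2ao: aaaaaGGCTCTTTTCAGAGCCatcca
Hist1h2ag: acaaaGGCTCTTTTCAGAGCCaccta
Hist2h2aa2: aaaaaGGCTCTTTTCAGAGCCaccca
Hist1h4h: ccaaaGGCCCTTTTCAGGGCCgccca
Hist3h2a: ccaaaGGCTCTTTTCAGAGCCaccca
Hist1h1c: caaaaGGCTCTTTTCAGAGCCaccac
Hist3h2ba: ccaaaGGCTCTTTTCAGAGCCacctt
Hist1h4d: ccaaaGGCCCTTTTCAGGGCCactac
The first 5 belong to transcripts that end there (3 bases further in Hist1h2ap, 46 in Hist1h4h). The last 4 belong to transcripts that go on for 1643 bases in Hist3h2a, 840 in Hist1h1c, 169 in Hist3h2ba and 770 in Hist1h4d. The form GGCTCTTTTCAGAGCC was found in 26 genes and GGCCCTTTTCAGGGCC in 7, all 7 of them H4 genes. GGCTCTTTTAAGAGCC stood in 6, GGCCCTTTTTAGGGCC in Hist1h4i and Hist2h4, and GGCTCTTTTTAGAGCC in Hist2h2ac alone.

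Libraries held 9933254 to 18369483 reads in genes in sorted cells of untreated mice, 14492246 to 14837110 in whole DG of untreated mice and 9292264 to 21598519 in the injury experiment. Radial glia markers (6 of 6 above 0) summed to 6779 to 51234 normalized counts per NSC library, 17116 to 36999 in IPCs and 49004 to 60484 in whole DG of untreated mice, so the NSC gate did not stand above the others in them. In the injury experiment, normalized on its own, these markers averaged 228526 in TBI NSCs and 171203 in sham NSCs. IPCs averaged 210967 and 152307, and whole DG 37564.5 and 32829.8, so both sorted populations stood above whole DG there. The sums of other markers given next are those of untreated mice. Intermediate progenitor and neuroblast markers were highest in IPCs (39336 to 64554, against 19915 to 43250 in NSCs and 4371 to 5074 in whole DG). Endothelial markers summed to 43914 to 64666 in NSCs and 10900 to 68181 in IPCs, compared with 954 to 1512 in whole DG, and pericyte and smooth muscle markers to 36855 to 64357, 52579 to 105893 and 1270 to 1623. Microglia and macrophage markers summed to 669 to 4348 in NSCs, 8.34 to 1622 in IPCs and 4667 to 5083 for whole DG, and leptomeningeal fibroblast markers to 0 to 4266, 0.70 to 1121 and 585 to 1019. Mature neuron markers ran the other way (1715 to 4547 in NSCs and 4105 to 9113 in IPCs, compared with 129775 to 160063 in whole DG). The part of these other cells in the histone values was not tested, and in bulk RNA fewer cells of a type and less RNA per cell cannot be told apart.

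Of the 69 genes, 67 were above 0 in at least 1 of the 38 libraries and 18 in every library. The other 2 were Hist1h1t and Hist1h2aa, whose histones are known from testis. The third such gene, Hist1h2ba, had at most 11 normalized counts in any mouse and none in whole DG of untreated mice. Normalized counts are read counts per gene divided by a size factor per library. By their highest mean in an untreated group, 19 genes reached 100, 27 lay between 10 and 100, and 23 stayed under 10. Together the 69 genes summed to 11063, 15334 and 13410 normalized counts in NSCs of mice 1, 2 and 3, to 13236, 10827 and 10862 in IPCs of the same mice, and to 4403, 4550 and 5514 in whole DG of mice 4, 5 and 6. NSCs and IPCs overlapped in this sum, and both stood above whole DG in all 3 mice. H2A genes made up 68.4% of the sum in NSCs and 66.0% in IPCs, compared with 49.9% in whole DG, and H2B genes 21.6%, 21% and 39.9%. H1, H3 and H4 genes were minor in each group: H3 made up 1.08% in NSCs and 1.52% in IPCs, compared with 1.41% in whole DG, and H4 2.51%, 3.91% and 1.95%.

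Hist3h2a (chr11:58954685-58956830), an H2A gene outside the large cluster, had the highest level. It had a normalized count of 3536, 4121 and 2620 in NSCs, 5919, 4625 and 4780 in IPCs, compared with 1399, 1771 and 1640 in whole DG. No 2 of these groups overlapped, and IPCs were highest. Its neighbour Hist3h2ba (chr11:58948920-58949533), an H2B gene, had another order, with 150, 290 and 143 in NSCs, 257, 170 and 265 in IPCs, compared with 598, 298 and 714 in whole DG. For Hist3h2ba, the 2 sorted populations overlapped and whole DG stood above both. Among the other H2B genes, Hist1h2bc had 1403, 1595 and 1777 in NSCs, 1464, 1467 and 1342 in IPCs, compared with 629, 918 and 1004 in whole DG. Hist1h2bg had 368, 344 and 410 in NSCs, 347, 332 and 362 in IPCs, compared with 163, 204 and 268 in whole DG. NSCs and IPCs overlapped in both H2B genes, and whole DG was lower in every mouse.

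Another set of H2A genes differed more between the sorted populations. Hist1h2ap (chr13:21833026-21833507) had a normalized count of 1042, 2083 and 1718 in NSCs, 735, 360 and 564 in IPCs, compared with 74.2, 59.7 and 91.1 in whole DG. Hist1h2ao (chr13:21810465-21810944), whose coding sequence is identical over its 390 bases, had 558, 1110 and 974 in NSCs, 381, 214 and 304 in IPCs, compared with 53.0, 34.0 and 46.2 in whole DG. In both genes all NSCs stood above all IPCs, and all IPCs above whole DG. Hist1h2ag had 405, 888 and 719 in NSCs, 291, 157 and 219 in IPCs, compared with 20.0, 21.1 and 30.4 in whole DG. Hist1h2ah had 294, 615 and 515 in NSCs, 212, 98.0 and 159 in IPCs, compared with 10.6, 14.1 and 20.6 in whole DG. Hist1h2aj, annotated as an unprocessed pseudogene, had 245, 557 and 422 in NSCs, 172, 98.8 and 127 in IPCs, compared with 18.8, 12.9 and 15.8 in whole DG. The order of the groups was the same in these 3 genes, with no overlap.

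The remaining H2A and H1 genes of the 12 with the highest levels differed less. Hist2h2aa2 had 348, 492 and 598 in NSCs, 435, 490 and 485 in IPCs, compared with 317, 279 and 325 in whole DG. Its copy Hist2h2aa1, also with identical coding sequence, had 312, 439 and 542 in NSCs, 403, 405 and 422 in IPCs, compared with 273, 218 and 342 in whole DG. Both are H2A genes in which NSCs and IPCs overlapped. Hist1h1c, a linker histone gene, had 696, 508 and 626 in NSCs, 938, 1056 and 353 in IPCs, compared with 354, 280 and 319 in whole DG, and IPC mouse 3 lay within the range of whole DG. The order by level changes once the count is divided by the annotated exon length. Per kilobase, Hist1h2ap was highest in NSCs (3349 normalized counts per kb, against 1596 for Hist3h2a), while Hist3h2a was highest in IPCs (2380, against 1148 for Hist1h2ap) and Hist3h2ba in whole DG (874, against 747 for Hist3h2a).

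**Figure D1:**
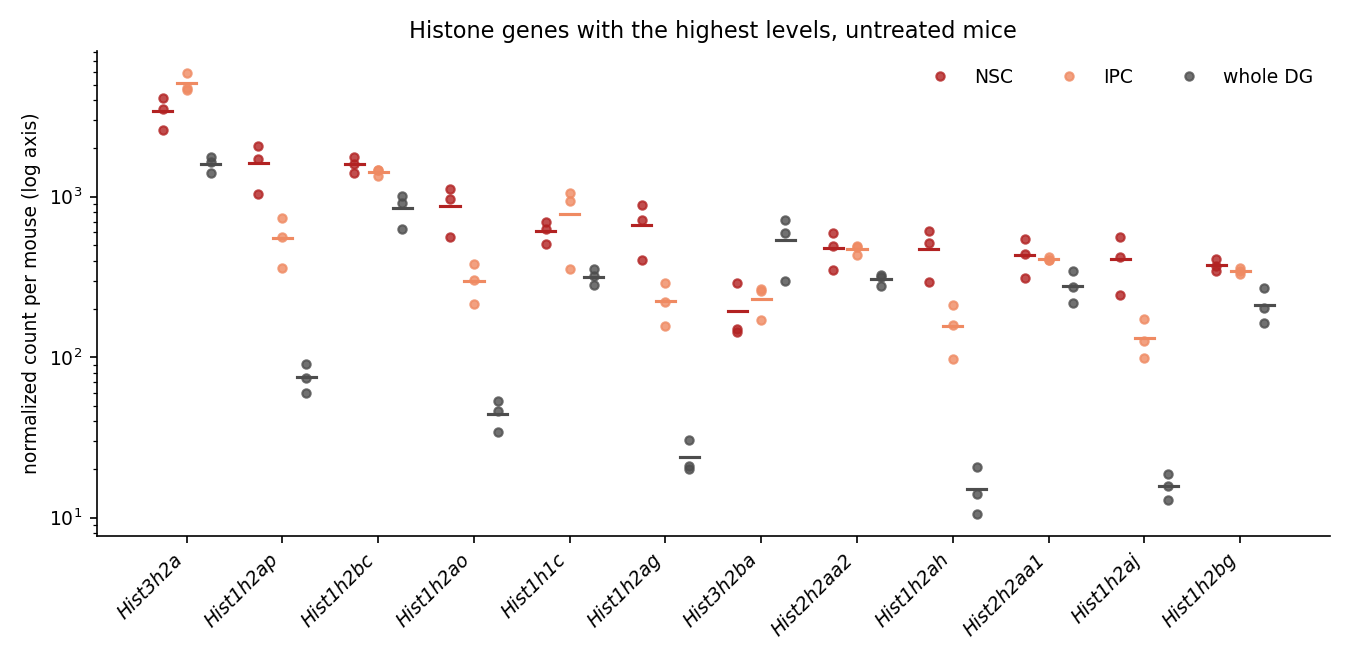
Normalized count (log axis) of the 12 histone genes with the highest levels in NSCs, IPCs and whole DG of untreated mice. Each point is 1 mouse and each bar the mean of 3 mice. Hist1h2ap, Hist1h2ao, Hist1h2ag, Hist1h2ah and Hist1h2aj step down from NSCs to IPCs to whole DG without overlap, while Hist3h2a is highest in IPCs and Hist3h2ba in whole DG.

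Reads were counted without regard to strand, so a gene and a partner lying over it on the other strand cannot be told apart. Another gene of the tables lay over 26 of the 69 genes, among them all 20 H2A genes. Gm44357 held 97.2% as many reads as Hist1h2aj, Gm44466 34.9% as many as Hist1h2ap, and Trim17 75.5% as many as Hist3h2a (138197 reads over all libraries). Trim17 was above Hist3h2a in none of the 38 libraries. Hist1h4b and 4930558J22Rik had the same count in 38 of 38 libraries. How reads that match identical copies were shared out is not given in the sources used here, and Hist1h2ao and Hist1h2ap, Hist2h2aa1 and Hist2h2aa2, Hist1h2bq and Hist1h2br, and Hist1h4m and Hist1h4n are uncertain as single genes.

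Comparing NSCs with IPCs asks whether the population that holds the stem cells differs in histone mRNA from its progeny. Tests were made with limma on log2(normalized count + 1), so fold changes of low genes are understated. Called genes had a Benjamini-Hochberg adjusted p under 0.05 over all genes tested and changed by at least 1 on the log2 scale. Genes needed a mean of at least 10 normalized counts over the mice of both sides compared. Of 41 histone genes that passed this minimum, 0 were called, against 2 of all 16552 genes (0.0121%). At an unadjusted p under 0.05 there were 10 histone genes, of which 9 were higher in NSCs and Hist3h2a was lower, and 2034 of all genes. edgeR called 0 and DESeq2 called 6 (Hist1h1b, Hist1h2ag, Hist1h2ah, Hist1h2aj, Hist1h2ao and Hist1h2ap), all higher in NSCs, among 637 genes in all. The count over all genes rested on few libraries: it was 70 without IPC mouse 2 and 185 without technical replicate 2 of that mouse, in which 12157 genes were above 0 (15363 to 16646 in the other IPC libraries), and 0 without any 1 of the other 5. Histone genes called stayed at 0 in each of these. The median log2 fold change was 0.44 over the histone genes tested and 0.01 over all genes. In 10 histone genes every NSC mouse stood above every IPC mouse, beside 9.97% of all genes.

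The fold changes were close to each other within the H2A set. Hist1h2ap had a log2 fold change of 1.55 (SE 0.36, adjusted p = 0.168), and Hist1h2ao, Hist1h2ag, Hist1h2ah and Hist1h2aj lay between 1.53 and 1.60 (adjusted p = 0.171 to 0.218). The linker histone gene Hist1h1b had a normalized count of 63.7, 139 and 157 in NSCs, 11.9, 4.12 and 33.4 in IPCs, compared with 2.36, 0 and 2.43 in whole DG. For Hist1h1b the fold change of NSCs over IPCs was 3.1 (SE 0.87, adjusted p = 0.226). Hist3h2a had a fold change of -0.59 (adjusted p = 0.288). By class the medians were 1.30 over 16 H2A genes, 0.92 over 4 H1 genes, 0.17 over 8 H2B genes, -0.01 over 6 H3 genes and -0.42 over 7 H4 genes. Genes whose transcripts end at the stem-loop had a median of 1.16 (9 genes), those whose transcripts run past it 0.15 (18 genes), and those without an annotated stem-loop 0.66 (14 genes). None of these groups held a called gene.

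**Figure D2:**
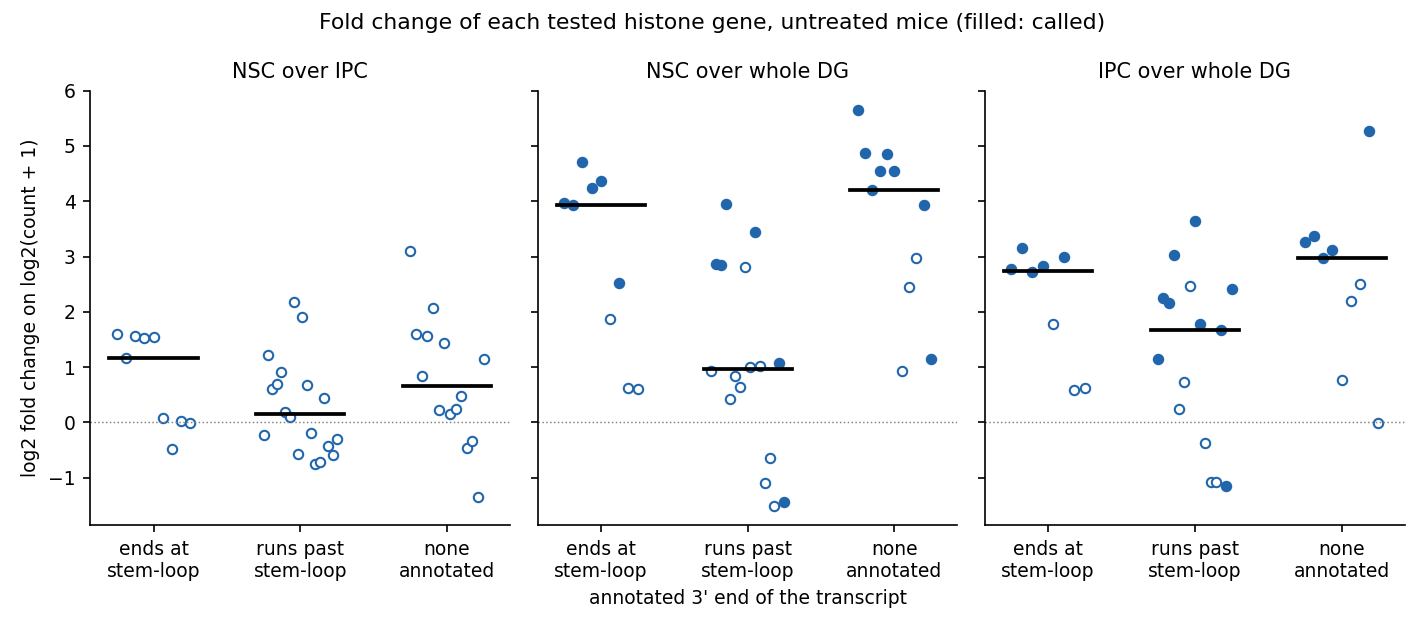
Log2 fold change (on log2 of normalized count + 1) of each histone gene tested in untreated mice, by the annotated 3' end of its transcript, for NSC over IPC, NSC over whole DG and IPC over whole DG. Each point is 1 gene, filled where called, and bars are medians: 1.16, 0.15 and 0.66 for NSC over IPC, 3.93, 0.97 and 4.21 for NSC over whole DG, and 2.74, 1.67 and 2.97 for IPC over whole DG. Hist1h2ak and Hist1h4j were at 0 in whole DG, so that their plotted values depend on the added 1.

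Against whole DG, the histone genes tested stood mostly higher in the sorted cells. The minimum was set on the mean over both sides, so a gene could pass it through the sorted cells alone. Hist1h2ak, with a mean of 28.0 in NSCs and 0 in whole DG, did so. Which genes were tested, and so the counts below, therefore depended on the side where a gene is high. The same minimum held for all genes. Of 36 genes tested in NSCs over whole DG, 19 rose and 1 fell, beside 12.3% of all genes called higher and 31.5% called lower. The median log2 fold change was 2.66, against -0.68 over all genes. In IPCs over whole DG, 18 of 32 rose and 1 fell (11.2% of all genes higher, 32.0% lower), with a median of 2.22 against -0.72. All genes were thus shifted down in both comparisons. With every library rescaled to 1 total the medians of all genes moved to 0.06 and 0.04. All genes then split into 4156 higher and 3714 lower for NSCs (2190 and 5629 before) and 4014 higher and 3630 lower for IPCs (1989 and 5671 before). The histone genes called became 30 higher and 0 lower for NSCs, and 23 and 0 for IPCs.

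By class, 13 of 15 H2A genes tested rose in NSCs and 11 of 13 in IPCs, against 2 of 3 and 2 of 2 H1 genes, 3 of 6 and 5 of 6 H4 genes, 1 of 9 and 0 of 8 H2B genes, and 0 of 3 H3 genes in each. Of all genes, 12.3% rose in NSCs and 11.2% in IPCs. Among genes above 0 in whole DG, the largest fold change in NSCs was that of Hist1h1b (5.64, SE 0.87, adjusted p = 0.000764), followed by the H2A genes Hist1h2ah (4.87, SE 0.48), Hist1h2ag (4.71, SE 0.41) and Hist1h2an (4.55, SE 0.56). Hist1h2an had a normalized count of 99.3, 204 and 184 in NSCs, 72.7, 39.8 and 62.3 in IPCs, compared with 5.89, 3.51 and 8.5 in whole DG. The H2A gene Hist1h2ak averaged 28.0 in NSCs and was at 0 in all 3 whole DG libraries, so it was at least 23.6-fold higher in NSCs against a floor of 3 reads over the group. The H4 gene Hist1h4j averaged 20.7 in NSCs and 40.9 in IPCs and was also at 0 in whole DG (at least 17.4-fold and 34.4-fold higher). Placing these genes at their bounds left the medians above as they were.

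In IPCs the H4 gene Hist1h4d, with the largest change among genes above 0 in whole DG, had 79.7, 61.8 and 88.5 normalized counts, against 42.9, 77.8 and 86.1 in NSCs and 1.18, 5.86 and 14.6 in whole DG. IPCs over whole DG gave a log2 fold change of 3.64 for this gene (SE 0.76, adjusted p = 0.00413). Next came the H2A genes Hist1h2ai (3.37, SE 0.58), Hist1h2ah (3.27, SE 0.48) and Hist1h2ag (3.15, SE 0.41). Hist1h2ai had 40.9, 35.8 and 55.5 in IPCs and 2.36, 5.86 and 2.43 in whole DG. The H4 gene with the highest level, Hist1h4h, had 240, 105 and 167 in IPCs, 83.8, 112 and 165 in NSCs, and 16.5, 17.6 and 25.5 in whole DG, and rose by 2.99 in IPCs over whole DG. Hist1h4d and Hist1h4h overlapped between IPCs and NSCs and stood above whole DG in every mouse.

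Hist3h2ba was the gene that fell, with a log2 fold change of -1.44 in NSCs (adjusted p = 0.0196) and -1.15 in IPCs (adjusted p = 0.0492). Rescaled to 1 total the values were -0.75 (adjusted p = 0.181) and -0.46 (adjusted p = 0.401), and with edgeR the call was lost in both. In IPCs it was lost with DESeq2 (-0.89, adjusted p = 0.089) and with a pseudocount of 0.5 (adjusted p = 0.0502) as well. The call was also lost without NSC mouse 1 or 3 (-1.30 and -1.26), without DG mouse 4 or 6 (-1.32 and -1.19 in NSCs, -1.02 and -0.90 in IPCs) and without any of the 3 IPC mice (-0.94 to -1.26). Hist3h2a rose by 1.08 in NSCs (adjusted p = 0.00141) and by 1.67 in IPCs (adjusted p = 0.00013). In NSCs it came under 1 without NSC mouse 2 (0.93) or DG mouse 4 (0.98). Hist1h1c rose by 1.15 in IPCs (adjusted p = 0.0363), a call lost without IPC mouse 1 or 2 (0.95 and 0.86) and without any 1 of the 3 DG mice (1.06 to 1.23). In IPCs, Hist1h1c and Hist3h2ba also lost the call without the variance trend of limma and with no minimum level.

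The histone sum was also split by 3' end. Genes that end at the stem-loop summed to 4396 ± 1326 normalized counts (NSCs), 2226 ± 386 (IPCs) and 778 ± 131 (whole DG) (SD, n = 3 mice each), which is 33.1%, 19.1% and 16.1% of the histone sum. Genes that run past it summed to 5439 ± 704, 7220 ± 844 and 2954 ± 326, or 41%, 62.0% and 61.3%, and genes without an annotated stem-loop held 25.9%, 18.9% and 22.6%. The share of genes that end at the stem-loop was larger in NSCs than in IPCs or whole DG, a difference that was not tested. Against whole DG, 6 of 9 genes that end at the stem-loop rose in NSCs, 5 of 16 that run past it (and 1 fell) and 8 of 11 without an annotated one. In IPCs it was 5 of 8, 8 of 15 (and 1 fell) and 5 of 9. Of all genes, 12.3% rose and 31.5% fell in NSCs over whole DG, and 11.2% and 32.0% in IPCs. The genes that end at the stem-loop include the H2A genes Hist1h2ap, Hist1h2ao and Hist1h2ag, so 3' end and class were not separated. Those without an annotated stem-loop include transcripts annotated only up to the stop codon.

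Genes of related function were set beside the histone genes. Over all genes, 12.3% rose and 31.5% fell in NSCs over whole DG, and 11.2% and 32.0% in IPCs. The 11 histone genes listed as working outside replication, with mRNAs taken to carry poly(A) tails, summed to 67609 ± 4522 in NSCs and 67917 ± 6922 in IPCs, compared with 23090 ± 1586 in whole DG. The ends of their mRNAs, H2afx among them, were not checked. Of 10 tested, 6 rose and 1 fell in NSCs over whole DG (median 1.36), and 5 rose in IPCs (median 1.21). H3f3b and H3f3a, which code for the replacement histone H3.3, rose by 2.19 and 2.41 in NSCs, and H2afz, coding for H2A.Z, by 1.19. Among 10 genes of histone mRNA transcription and 3' processing, Slbp averaged 2093 in NSCs and 1661 in IPCs, compared with 733 in whole DG, and rose by 1.51 and 1.18. Lsm10, a part of the U7 particle that cuts histone mRNA, rose by 1.2 and 1.41, and Cpsf3, the nuclease that makes the cut, had fold changes of 0.24 and 0.66, which were not called. In all, 2 of those 10 rose and 3 fell in NSCs, and 2 rose and 4 fell in IPCs. These counts lay near the shares of all genes. Of 6 histone chaperones of S phase, 4 rose in each population, among them Nasp (2.71 in NSCs, 2.37 in IPCs) and Hat1 (1.72 and 1.08). In IPCs Chaf1a, a subunit of the assembly factor CAF-1, fell (-5.32, adjusted p = 0.0117).

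Genes of the cell cycle were set beside the histone genes as well. DNA replication and S phase genes (20) summed to 17263 ± 1819 in NSCs and 13373 ± 1315 in IPCs, compared with 6410 ± 226 in whole DG. In NSCs over whole DG 13 rose and 1 fell, and in IPCs 4 rose and 1 fell. The replicative helicase gene Mcm7 rose by 2.06 in NSCs and 2.70 in IPCs, and Pcna, the sliding clamp, by 1.21 in NSCs with 0.77 in IPCs. The 8 genes of G2 and mitosis summed to 6738 ± 542 in NSCs and 1633 ± 792 in IPCs, compared with 461 ± 99.4 in whole DG, and 7 rose in NSCs and 4 in IPCs. In NSCs over IPCs 0 of these 8 were called and 7 had an unadjusted p under 0.05 (median log2 fold change 2.18), with Ccnb1 at 2.75 (adjusted p = 0.0995) and Top2a at 2.33 (adjusted p = 0.105). Marker lists of other cells moved in the same comparison: medians were 1.52 over 6 endothelial genes, 3.22 over 4 microglia and macrophage genes and 2.58 over 3 leptomeningeal fibroblast genes, and -0.99 over 5 pericyte and smooth muscle genes. Of these, 5, 4, 2 and 5 had an unadjusted p under 0.05 and 0 were called. The part of any of these lists in the H2A values was not tested.

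The spread of the histone sum lay mostly in 6 H2A genes of 1 stretch of chromosome 13 (chr13:21721457-22042944): Hist1h2ag, Hist1h2ah, Hist1h2aj, Hist1h2an, Hist1h2ao and Hist1h2ap. The stretch also holds Hist1h2ak, an H2A gene of lower level that was left out, and histone genes of other classes, such as Hist1h1b. The pattern was not confined to the stretch. Hist1h2ae, outside it, had 211, 55.8 and 206 normalized counts in TBI IPCs and 76.7, 249 and 127 in sham IPCs. Hist1h2ac and Hist1h2ad had the same high and low IPC mice. Hist2h2aa2 did not, with 841, 1134 and 859 in TBI IPCs and 928, 716 and 717 in sham IPCs. The 6 genes were put together after their values had been seen, and no test was made on them. Over the 17 pairs of mouse and sorted population of both experiments their sum ran from 968 to 8298 normalized counts, while the sum of the other 63 genes ran from 8420 to 11372. In untreated mice the 6 genes summed to 2643, 5456 and 4532 in NSCs, 1864, 968 and 1435 in IPCs, compared with 183, 145 and 213 in whole DG. They were 23.9% to 35.6% of the histone sum in NSCs, 8.95% to 14.1% in IPCs and 3.19% to 4.15% in whole DG.

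The ratios of the other 5 genes to Hist1h2ap varied less than the sum did. Over the 17 pairs the ratio of Hist1h2ao to Hist1h2ap stayed between 0.52 and 0.61, that of Hist1h2ag to Hist1h2ap between 0.39 and 0.60, and that of Hist1h2ah to Hist1h2ap between 0.27 and 0.41. For Hist1h2aj it ran from 0.20 to 0.32, and for Hist1h2an, the gene with the widest range, from 0.052 to 0.136. Coding sequences of Hist1h2ag and Hist1h2ap differ in 3 of 390 bases, so reads may be shared between copies. Technical replicates of 1 mouse also differed: the 6 genes summed to 2975, 3045 and 1908 in NSCs of mouse 1, to 11133, 3052 and 2182 in those of mouse 2, and to 7744, 1921 and 3931 in those of mouse 3. In NSCs of mice 2 and 3, but not of mouse 1, libraries from 300 sorted cells spread over more than the gap between the means of NSCs (4210) and IPCs (1423). In the same 3 libraries of NSC mouse 2, G2 and mitosis genes summed to 10545, 1050 and 7938.

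In the injury experiment the 2 sorted populations overlapped in these genes. Hist1h2ap had 649, 924 and 1350 normalized counts in NSCs and 3143, 688 and 2809 in IPCs of TBI mice 1, 2 and 3, and 2630 and 1100 in NSCs of sham mice 4 and 6 and 557, 2675 and 640 in IPCs of sham mice 4, 5 and 6. High and low mice occurred in both populations and under both treatments. The 6 genes summed to 1704, 2484 and 3867 in TBI NSCs and 7659 and 3205 in sham NSCs, and to 8298, 1816 and 7411 in TBI IPCs and 1547, 7951 and 1860 in sham IPCs. Sham IPC mouse 5 had G2 and mitosis genes at 8176, while sham IPC mouse 6 had 11711 with a sum of 1860 for the 6 H2A genes. S phase genes summed to 24914, 14486 and 15519 in TBI IPCs and to 13863, 15741 and 17395 in sham IPCs. A link of either list with the H2A sum was not tested. Of 45 histone genes tested in NSCs over IPCs, 0 were called (0% of all genes), and 2 had an unadjusted p under 0.05, beside 973 of all 17230 genes. DESeq2 called 0 histone genes and 161 genes in all, and edgeR called 0. The median log2 fold change was -0.02. Hist3h2a was again lower in every NSC mouse (1863 to 2884, against 2943 to 3586 in IPCs, log2 fold change -0.55, adjusted p = 0.706).

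**Figure D3:**
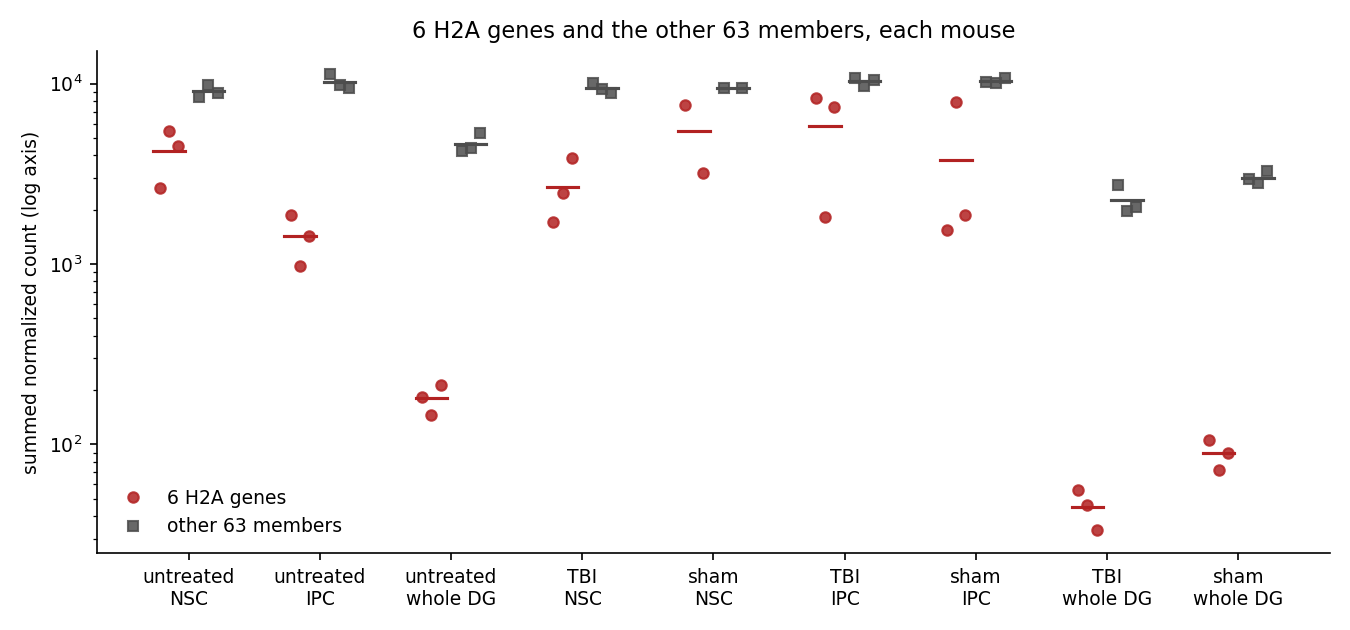
Summed normalized count (log axis) of 6 H2A genes (circles) and of the other 63 histone genes (squares) in each mouse of each group, with bars at the means. In sorted cells the 6 genes spread from 968 to 8298 while the other 63 stay between 8420 and 11372. In whole DG both are lower, and the 6 genes lie at 213 or less.

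Both sorted populations of the injury experiment also stood above whole DG. In NSCs 29 of 41 genes rose and 0 fell (19.3% of all genes higher, 33.5% lower), with a median log2 fold change of 2.50 against -0.49 for all genes. In IPCs 30 of 40 rose and 2 fell (19.0% and 37.3%), with 2.87 against -0.67. Rescaled to 1 total NSCs had 29 higher and 0 lower, and IPCs 31 and 1. All 16 H2A genes tested rose in each population. As in untreated mice, a gene could pass the minimum through the sorted cells alone, so these counts depended on the side where it is high. Hist1h2ai, with at most 2.65 normalized counts in any whole DG library of this experiment, did so. The largest changes among the H2A genes in NSCs were those of Hist1h2ao (5.84 in NSCs, 5.96 in IPCs), Hist1h2ah (5.82 and 5.84), Hist1h2ap (5.80 and 5.89), Hist1h2ag (5.70 and 5.76) and Hist1h2aj (5.65 and 5.54). Hist1h4d was above 0 in 1 of 6 whole DG libraries and had 14.3 to 106 normalized counts in NSCs and 18.6 to 166 in IPCs.

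The 2 genes that fell were H3 genes of the Hist2 cluster, both in IPCs. Hist2h3c1 had 10.7, 22.5 and 0.68 normalized counts in TBI IPCs and 99.9, 4.88 and 0.90 in sham IPCs, against 95.1, 31.7 and 58.3 in TBI whole DG and 74.2, 73.5 and 92.1 in sham whole DG (log2 fold change -2.92, adjusted p = 0.0104). Sham IPC mouse 4 lay above all whole DG libraries. Hist2h3c2 averaged 57 in TBI IPCs and 4.85 in sham IPCs, against 41.7 in TBI and 53.9 in sham whole DG (-1.71, adjusted p = 0.043). Its call was lost on rescaling (-1.44, adjusted p = 0.0867), with edgeR, and without any 1 of 10 of the 12 mice (all but TBI IPC mouse 2 and sham IPC mouse 4). With edgeR Hist2h3c1 was lost as well (-1.64, adjusted p = 0.136). H3 genes were sparse throughout, and the 3 with the highest levels in untreated mice, Hist2h3c1, Hist1h3e and Hist1h3d, averaged at most 76.2 in any untreated group.

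TBI over sham was tested within each population. In NSCs 0 of 43 histone genes were called (0% of all genes) and 1 had an unadjusted p under 0.05, beside 743 of all 17274 genes. That gene was Hist1h1c, with 1286, 593 and 630 normalized counts in TBI NSCs, against 1337 and 2039 in sham NSCs (log2 fold change -1.08, adjusted p = 0.944). All 3 TBI mice lay below both sham mice, as in 3 of the 43 genes, and in 4 others all TBI mice lay above. The matching share of all genes was not worked out. In IPCs 0 of 44 were called (0%), and 1 had an unadjusted p under 0.05, Hist2h3c2 (3.85, adjusted p = 0.915), beside 752 of 16970 genes. DESeq2 called 0 histone genes in both, with 247 genes in all in NSCs and 102 in IPCs, and edgeR called 0 genes. Whether the response differs between NSCs and IPCs was tested as an interaction, in which 0 of 45 histone genes were called (0%), 1 had an unadjusted p under 0.05 (Hist2h3c2, adjusted p = 0.9996) beside 565 of all genes, and DESeq2 called 0 of 130.

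In whole DG 18 histone genes passed the minimum and 0 were called (0% of all genes). At an unadjusted p under 0.05 there were 7, all lower after TBI, beside 3468 of all 17434 genes. DESeq2 called 0 histone genes and 194 genes in all, and edgeR called 0. Without sham mouse 10, 533 of all 17446 genes were called (366 higher, 167 lower) and 0 histone genes. The median log2 fold change was -0.47, against -0.04 for all genes. In 6 histone genes every TBI mouse lay below every sham mouse, beside 13.9% of all genes, and in 1 every TBI mouse lay above. The sum of the 69 genes was 2782, 2009 and 2113 in TBI whole DG, against 3079, 2867 and 3355 in sham whole DG, without overlap.

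Hist1h2ap had 18.0, 15.9 and 9.52 normalized counts in TBI whole DG, against 40.6, 30.7 and 28.9 in sham whole DG (log2 fold change -1.18, SE 0.35, adjusted p = 0.151). Hist1h2bg had 75.4, 75.4 and 77.3, against 139, 89.5 and 147 in sham (-0.68, adjusted p = 0.168). Hist3h2a had 715, 569 and 524, against 717, 829 and 891 in sham (-0.44, adjusted p = 0.172). In these 3 genes the groups were apart in every mouse, though by a small margin for Hist3h2a. Hist3h2ba had a fold change of -0.46, Hist1h1c -0.58, Hist1h2bc -0.42 and Hist2h3b -1.33 (adjusted p = 0.166 to 0.234). Markers of oligodendroglia moved with these values (13648 to 17783 in TBI whole DG, against 23962 to 26467 in sham, 4 of 4 genes above 0), as did those of microglia (1923 to 2057, against 2340 to 2596) and mature neurons (121541 to 136114, against 136519 to 153139). Astrocyte markers overlapped between the groups (33744 to 42483, against 34607 to 39123). So did those of radial glia, endothelial cells, pericytes and smooth muscle, and leptomeningeal fibroblasts. Intermediate progenitor and neuroblast markers overlapped too and leaned higher after TBI (4688 to 5065, against 3473 to 4706). The part of any of these marker lists in the histone values was not tested. S phase genes overlapped between the groups (4772 to 5471, against 3913 to 5751), as did G2 and mitosis genes (357 to 412, against 317 to 421). The 11 histone genes listed as working outside replication went the other way. Their sum was 17135 ± 64.2 in TBI whole DG and 14664 ± 1933 in sham whole DG (SD). Every TBI mouse lay above every sham mouse in this sum, a difference that was not tested.

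**Figure D4:**
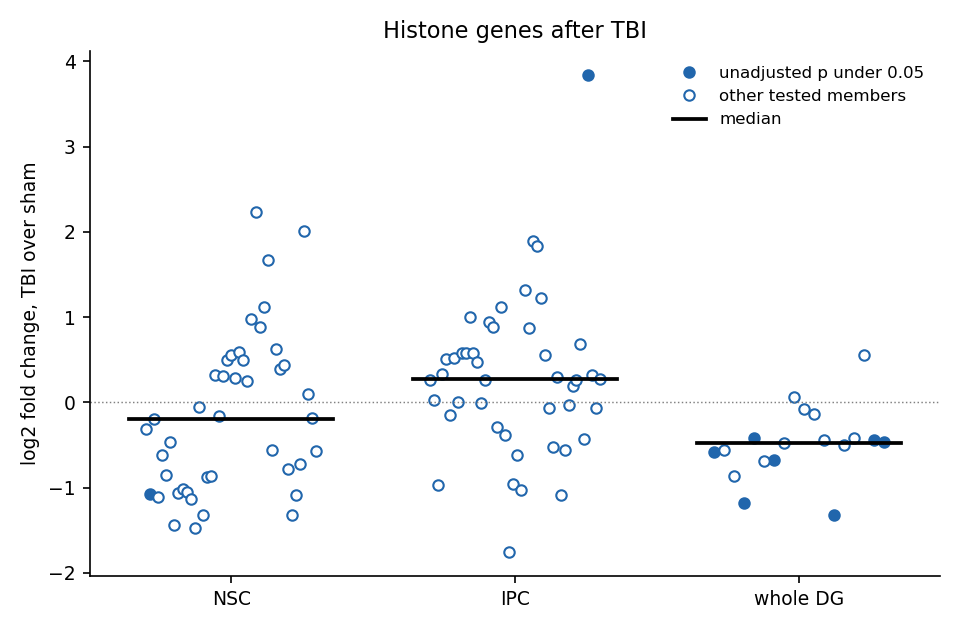
Log2 fold change (on log2 of normalized count + 1) of each histone gene tested, TBI over sham, in NSCs (43 genes), IPCs (44) and whole DG (18). Filled points had an unadjusted p under 0.05 and bars are medians (-0.19, 0.27 and -0.47). No gene was called in any of the 3, and in whole DG the 7 filled points all lie below 0.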

How the data were processed

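The signal in the deposited tables is a normalized count per gene. For it the authors aligned reads to GRCm38 with HISAT2 (2.0.6 in the submitters' notes, which also give CASAVA 1.8.2 and name the build GRCh38), counted them over GENCODE genes with featureCounts in unstranded mode, and divided each library by its DESeq2 size factor. In filtered tables they kept a value where a gene passed CLEAR, a test of even coverage. In every library 100% of values were whole multiples of 1 step (within 0.05), so reads were recovered. Among the unfiltered injury values, 1 column that matches no listed library was not used.

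Technical replicates were averaged per mouse, the replicate. limma 3.58.1 with a variance trend was run on log2(normalized count + 1) of unfiltered values, over genes with a mean of at least 10 in the mice compared. Comparisons with whole DG shared 1 fit over the 3 populations. edgeR 4.0.16 and DESeq2 1.42.0 on recovered reads, pseudocounts of 0.5 and 10, other minimums, rescaling and mice left out were alternatives (R 4.3.3, Python 3.11.15). The steps were tested on simulated data.

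Named genes were the 12 with the highest untreated mean, up to 5 called with the largest change in each direction per comparison, up to 3 per class, the testis-type genes, and up to 3 of each other list. Members and lists were chosen with earlier results of these data known. By the study's account NSCs and IPCs of 1 number come from the same mouse. Deviations of such pairs from their group means had correlations of 0.023 to 0.103. P values measure the spread between these mice. Sequences, positions and lengths are those of GENCODE M21 on GRCm38.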

Additional observations from a re-analysis of the deposited data

Results flagged for a closer look

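The summed histone level of 1 of the 9 NSC libraries of untreated mice stood far from the others: the first technical replicate of mouse 2 had 21247.9 normalized counts, and the nearest library had 15907.3 (gap over range 0.502, against a critical value of 0.493). In Hist3h2ba the second technical replicate of the same mouse had 584.322, and the nearest of the 9 had 215.914 (0.687). In all, 28 groups of 9 libraries were examined and 2 stood out, and chance alone marks about 1 in 20 such groups.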

How the results depend on the processing

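With the mouse as a replicate block, 0 histone genes were called in NSCs over IPCs of untreated mice and 0 in those of the injury experiment, as without the block, and no other comparison had pairs. Left out 1 mouse at a time, the histone genes called ranged from 17 to 20 in NSCs over whole DG, 15 to 17 in IPCs over whole DG, 27 to 30 in NSCs over whole DG and 30 to 33 in IPCs over whole DG of the injury experiment, and 0 in every other comparison. Where sham NSCs were left with 1 mouse, that mouse was assumed to vary like the others. DESeq2 called 6 histone genes in NSCs over IPCs of untreated mice, against 0 with limma and edgeR, and the cause was not tested. Requiring a CLEAR value in every library left 14 histone genes in IPCs over whole DG, of which 10 were called (9 higher, 1 lower), since fewer were tested. The whole DG libraries of the injury experiment have a value for every gene in the filtered table. On the log2 scale the summed level differed from that of whole DG by 1.43 in NSCs and by 1.27 in IPCs. Taken relative to each library's normalized total the differences were 2.13 and 1.97. TBI minus sham whole DG was -0.44, and -0.48 relative to the total.

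Over 46 results of named genes and 832 pairs of result and setting, 791 kept their call, 41 lost it (6 results) and 0 changed direction. The alternatives for the interaction were added after the data were seen, and none called a histone gene. Counts of a few reads limit H3 and most H4 genes, and libraries made from part of a lysate of 300 cells differ among technical replicates. Kit and tissue cannot be told apart against whole DG. A p that misses the threshold with 2 or 3 mice a group does not show that levels were alike.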
